A study of Mus musculus with 2 samples.

Results

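Glycolysis and hypoxia response genes were examined in gonad-mesonephros complexes of XX mouse embryos with and without a mutation of the transcription factor GATA4. The list names 42 genes, 27 of glucose uptake, glycolysis and lactate handling and 15 of oxygen sensing and the hypoxia response. Members were the probe sets annotated with exactly 1 gene symbol that equals a name on the list. The rule matched 37 of the 42 genes through 85 of the 45101 probe sets, out of 18194 genes on the array with a probe set of their own. All 37 were above the floor on both arrays, the floor being a signal of 24.0, the 50th percentile over both arrays. Of the 5 genes without a value, Gpi1, Pfkfb1 and Eno1 are not analysed here, the probe sets of Bnip3l carry several symbols, and Ero1l is annotated under its newer name Ero1a. Gapdh was read only by 3 control probe sets of the array.

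1 group was wild type and the other was homozygous for Gata4ki, a knock-in allele whose GATA4 protein binds FOG cofactors poorly. The allele is present in all cells of the embryo. In both groups the tissue was the embryonic gonad with its attached mesonephros, taken at E12.5 (embryonic day), and each group was 1 array hybridised with total RNA of 6 pairs of complexes. The strain is given for the mutant only, as C57Bl/6. With 1 array per group there was no replicate error, and no test, SD or p-value between groups was possible. The spread of ratios between genes of like signal is given in its place; it holds probe noise and real differences together, and does not measure the spread between embryos.

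Glycolysis splits glucose into pyruvate in the cytosol and yields ATP without oxygen, and lactate dehydrogenase then turns pyruvate into lactate and restores NAD+. The hypoxia-inducible factors HIF1A and EPAS1 pair with ARNT and bind a short DNA core in the regulatory regions of glycolytic and other genes. In the presence of oxygen, prolyl hydroxylases of the EGLN family mark the HIF alpha subunits, and VHL directs them to degradation. HIF activity is therefore set largely at the protein level, and HIF1A is required for normal development of the mouse embryo.

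No member reached a 2-fold difference between the arrays, and Slc2a3, a neuronal-type glucose transporter also found in leukocytes, was the only member past 1.5-fold. Among the 12301 genes measured on at least 1 array, 0.845% had a mutant signal at least 2-fold above wild type and 0.537% at least 2-fold below it, so that a list of this size with none past 2-fold lay near the background. For 1.5-fold the background was 3.54% higher and 3.11% lower, beside 1 of 37 members higher and 0 lower. In all, 27 of 37 members lay within 1.25-fold, against 79.4% of all measured genes. These background shares were taken over genes of all signals and were not matched to the signals of the members. The median log2 ratio of the members, mutant minus wild type, was 0.04, and that of all measured genes was 0.01. Their ratios ran from -0.48 for Eno2 to 0.64 for Slc2a3.

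**Figure D1:**
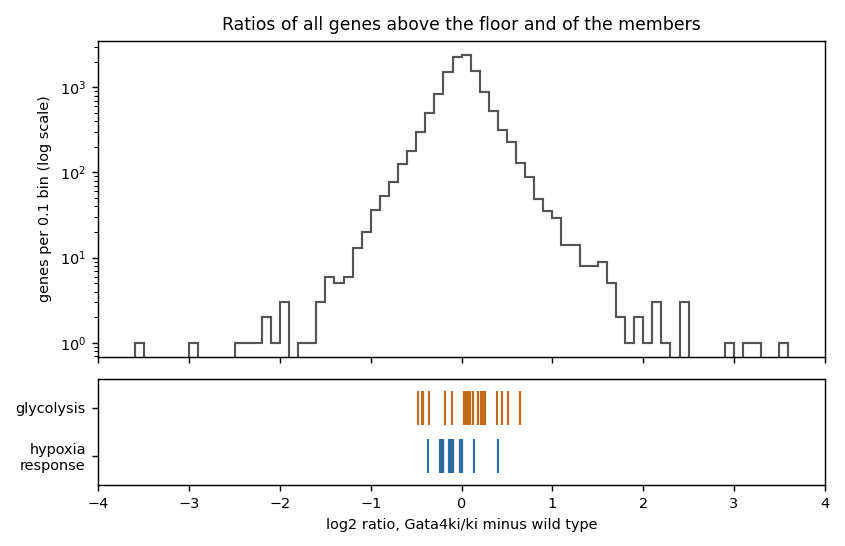
The upper panel plots the number of genes per bin of the log2 ratio, mutant minus wild type, for the 12301 measured genes on a log scale, and the lower panel marks each glycolysis member (24) and hypoxia response member (13) by a line at its ratio. All members lie between -0.48 and 0.64, inside the central part of the distribution.

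The glycolysis and the hypoxia genes leaned to opposite sides of 0, by small amounts. Of 24 glycolysis members 18 had a ratio above 0 and 6 below, with a median of 0.11. Of 13 hypoxia response members 3 had a ratio above 0 and 10 below, with a median of -0.13. Summed over members, the glycolysis signals were 26752 in wild type and 26426 in the mutant, a log2 ratio of -0.02 on the other side of 0 from the median, with Gapdh the brightest gene in the sum. The hypoxia response signals summed to 7444 and 6760, a log2 ratio of -0.14. Over all measured genes 51.4% were above 0 and 48.6% below. The pooling of the roles into these 2 sets was made after the values had been seen, and the split is a description of these 2 arrays. In a bulk sample, fewer cells of a type and less RNA per cell cannot be told apart.

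The robust SD of the log2 ratio over genes was 0.38 where the mean signal was under 100, 0.21 for signals of 100 to 400 and 0.12 for brighter genes. At least 2 robust SDs from 0 for their signal were 6 of 37 members, against 8.88% of all measured genes. Slc2a3, Aldoa, Eno3 and Pdk1 were among these 6 with higher signals in the mutant, and Gapdh and Pgam1 with lower signals. All 6 were glycolysis members and none was a hypoxia response member. The count rests on the brightest probe set of each gene. Less bright ones above the floor gave 0.30 for Slc2a3, -0.28 and -0.15 for Gapdh, and 0.03 and 0.84 for Pdk1. Those of Aldoa ran from -0.17 to 0.22. Of these less bright probe sets, only those at -0.28 and 0.84 were at least 2 robust SDs from 0 for their signal.

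Glucose enters cells through facilitative transporters, and both members of this role had higher signals in the mutant. Slc2a3, which encodes GLUT3, read 245 on the wild-type array and 382 on the mutant array with its brightest probe set, a 1.56-fold excess and a log2 ratio of 0.64. The other probe set above the floor gave 131 and 161 (0.30). The excess therefore passed 1.5-fold on 1 of these probe sets only, the median over both was 0.47, and 2.80% of genes of like signal were at least as far from 0. Both carry a suffix that the array maker gives to probe sets which may bind transcripts of other genes. The remaining probe sets of Slc2a3 stayed under the floor on both arrays, at 8.47 and 7.90 and at 2.84 and 0.58. The former of these carries no suffix. Slc2a1, which encodes GLUT1, the basal glucose transporter of many embryonic cells, had 1119 and 1311, a ratio of 0.23. Its other probe sets gave ratios of 0.26 and -0.01, so that they did not all point the same way.

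The signals of leukocyte and red cell markers also differed between the arrays. Of 11 macrophage and leukocyte markers, all above the floor, 10 had a ratio above 0, with a median of 0.58 and a summed signal of 1687 on the wild-type array against 2531 on the mutant array. Ptprc, Fcer1g, Csf1r and Adgre1 had ratios of 0.92, 0.87, 0.77 and 0.72. Of 9 measured erythroid markers 5 were at least 2-fold higher, with a median of 1.03 (0.57 with the floor at the 60th percentile) and summed signals of 16535 and 17949. Hemgn was at least 4.57-fold higher (20.2 and 109.8), and Klf1, Slc4a1 and Ermap had ratios of 1.66, 1.42 and 1.16. At the 60th percentile floor Hemgn, Klf1 and Ermap were at 1.18, 0.67 and 0.48, so that the latter pair no longer reached 2-fold. Most of the summed erythroid signal came from the embryonic globin genes, named after their values were seen. These were nearer to level, with ratios of -0.04 for Hbb-y, 0.18 for Hbb-bh1 and 0.29 for Hba-x. The part of leukocytes and red cells in the ratios of the glucose transporters and glycolytic enzymes was not tested.

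Hexokinases trap glucose in the cell by phosphorylation. Hk2, the inducible and insulin-responsive isoform, had 654 and 743, a log2 ratio of 0.18. Hk1, the widely expressed isoform, had 192 and 196 on its brightest probe set, a ratio of 0.03, but 124 and 81.4 on the other, a ratio of -0.60. These values give no common direction for Hk1.

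Phosphofructokinase catalyses the committed step, and its 3 subunit genes all had ratios between 0.09 and 0.25. The muscle-type subunit Pfkm gave 366 and 435, the platelet-type Pfkp 97.2 and 115, and the liver-type Pfkl 631 and 674. The 3 measured probe sets of Pfkl were all above 0. The ratios of Pfkm and Pfkp, 0.25 and 0.24, were just above the robust SD of genes of like signal, 0.21, and that of Pfkl, 0.09, was under its own, 0.12.

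The PFKFB enzymes make and remove fructose 2,6-bisphosphate, the activator of phosphofructokinase, and their genes went both ways. Pfkfb3, the isoform with the highest kinase over phosphatase activity, had 58.5 and 83.6, a log2 ratio of 0.51. Pfkfb4 had 99.6 and 77.7, a ratio of -0.36. Pfkfb2 had 46.9 and 49.9, a ratio of 0.09. At these signals, under 100, 20.7% of genes were at least as far from 0 as Pfkfb3.

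Among the enzymes that split and convert the sugar phosphates, 3 genes had higher and Gapdh lower signals in the mutant. Aldoa, the main aldolase of most tissues, had 1745 and 2092, a log2 ratio of 0.26. Of its 5 probe sets 4 were above 0, and the dimmest gave 506 and 449, a ratio of -0.17. All 5 carry the suffix that the array maker gives to probe sets which may bind transcripts of other genes. Aldoc, the brain-type aldolase, had 159 and 184, a ratio of 0.21. Tpi1, triosephosphate isomerase, had 2292 and 2593, a ratio of 0.18, with all 3 probe sets above 0.

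Gapdh, which encodes the dehydrogenase that yields the first NADH of the pathway and is often used as a reference gene, had lower signals in the mutant on all 3 control probe sets. The probe set at the 5' end of the transcript gave 5813 and 4287, a log2 ratio of -0.44. The one in the middle gave 5463 and 4494, a ratio of -0.28, and that at the 3' end 5235 and 4707, a ratio of -0.15. The difference was thus smallest at the 3' end. Signal at the 3' end divided by that at the 5' end, a measure of how complete the labelled RNA was, came to 0.90 on the wild-type array and 1.10 on the mutant array for Gapdh, and to 2.16 and 2.47 for beta-actin. Its part in the Gapdh value was not tested.

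The lower segment of the pathway, from the phosphoglycerate kinase step to pyruvate, showed no common direction. Pgk1, phosphoglycerate kinase, had 3163 and 3447 with its brightest probe set (log2 ratio 0.12). Its other probe sets gave ratios of 0.24 and 0.86, the last with 1538 and 2800 on a probe set that may bind other transcripts. All pointed to higher signal in the mutant, with sizes far apart. Pgam1, phosphoglycerate mutase, had 1369.9 and 1018, a ratio of -0.43, on its only probe set, and 2.42% of genes of like signal were at least as far from 0.

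Enolase and pyruvate kinase complete it. Eno3, the muscle-type enolase, had 158 and 215, a log2 ratio of 0.45. Eno2, the neuronal-type enolase, had 34.6 and 24.8, a ratio of -0.48, with the mutant just above the floor. Pkm, the pyruvate kinase of embryonic tissue, had 1999.7 and 2050.3, a ratio of 0.04. Each of these genes was read by 1 probe set. Of 10 skeletal muscle markers 5, among them Myog, Myod1 and Ckm, did not exceed the floor on the 2 arrays. The median of the other 5 was -0.35, and their summed signals were 492 and 497.

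Lactate dehydrogenase subunits differed little. Ldha, the subunit that favours lactate production and a textbook HIF target, had 2836 and 2951, a log2 ratio of 0.06. Ldhb, the heart-type subunit, had 2632 and 2315, a ratio of -0.19, and all 4 of its probe sets were below 0, from -0.25 to -0.10. Pdk1, a kinase that inhibits pyruvate dehydrogenase, had 553 and 724, a ratio of 0.39. Its other probe sets above the floor gave ratios of 0.03 and 0.84. Its direction was shared by all 3 probe sets, and its size was not. The lactate transporters Slc16a1 (MCT1) and Slc16a3 (MCT4) had ratios of -0.11 and 0.08, with 444 and 412 for the former and 43.6 and 46.1 for the latter.

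**Figure D2:**
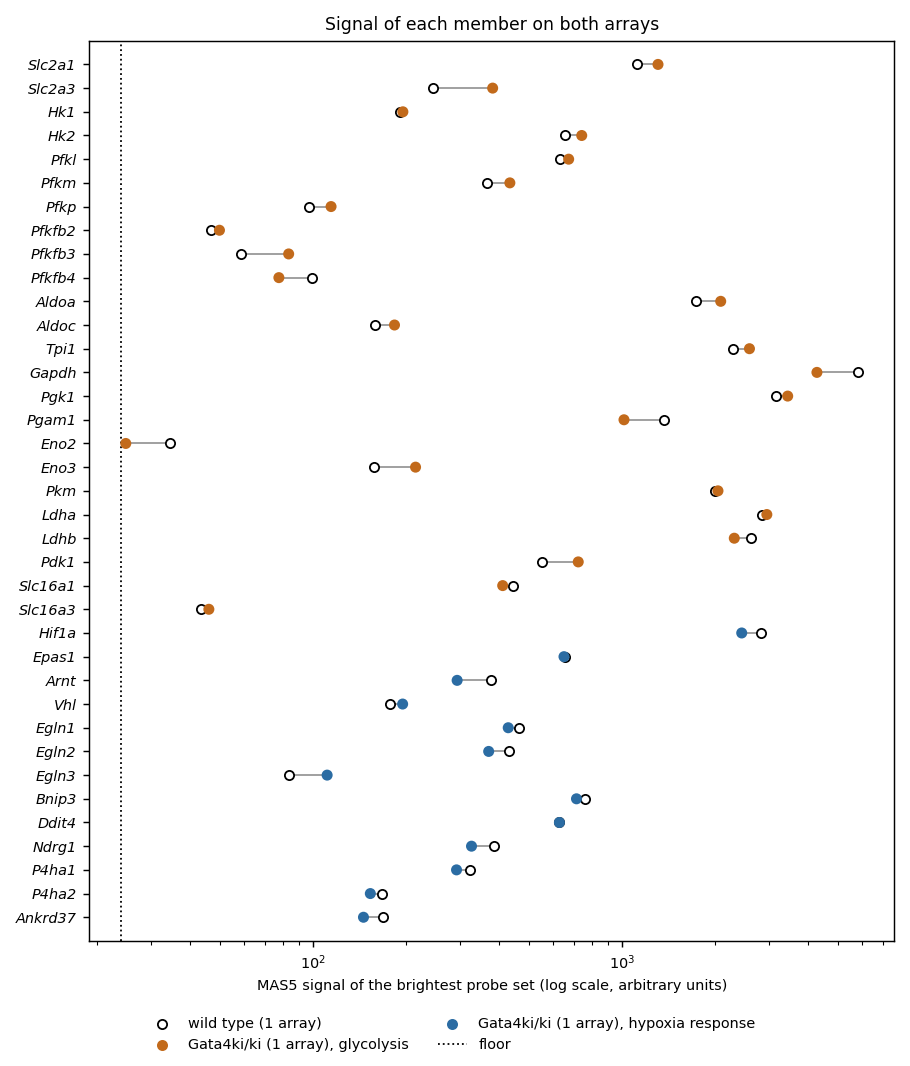
For each of the 37 members the MAS5 signal of the brightest probe set is plotted on a log scale in wild type (open circle) and in the mutant (filled circle; orange for glycolysis, blue for hypoxia response), and the dotted line is the floor at 24.0. The pairs lie close together for most genes; Slc2a3 (245 and 382) has the widest gap and Eno2 (34.6 and 24.8) lies just above the floor in the mutant.

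The HIF subunits had equal or lower signals in the mutant on their brightest probe sets. Hif1a had 2815 and 2447, a log2 ratio of -0.20. Its other probe sets above the floor gave 389 and 471, a ratio of 0.27, and 109 and 106, a ratio of -0.04, so that no direction holds over its probe sets. Epas1, which encodes HIF2A and is prominent in endothelium, had 656 and 651, a ratio of -0.01. Arnt, the common partner, had 378 and 293, a ratio of -0.37. All 3 measured probe sets of Arnt were below 0, from -0.37 to -0.20, and 12.4% of genes of like signal were at least as far from 0.

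Of the oxygen sensors, Egln3 had a higher signal in the mutant and the other 2 prolyl hydroxylase genes lower signals. Egln1 (PHD2), the main HIF hydroxylase in normal oxygen, had 466 and 429, a log2 ratio of -0.12, while the dimmer of its probe sets gave 99.7 and 130.1 (0.38). Egln2 (PHD1) had 433 and 371, a ratio of -0.22. Egln3 (PHD3), which is itself induced by HIF, had 84.1 and 111, a ratio of 0.41. Its other probe set, at 25.9 and 20.6, pointed the other way as a bound of at most -0.11. Vhl had 178 and 195, a ratio of 0.14, and its other probe set gave -0.21.

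The hypoxia-induced members outside the oxygen sensing system lay close to 0, mostly below it. Bnip3, a mitochondrial protein that starts mitophagy, had 763 and 714, a log2 ratio of -0.10. Ddit4 (REDD1), an inhibitor of mTORC1, had 626 and 629, a ratio of 0.01. Ankrd37, a small ankyrin repeat protein, had 169 and 146, a ratio of -0.21. P4ha1 and P4ha2, catalytic subunits of collagen prolyl hydroxylase, had ratios of -0.14 and -0.13, with 323 and 292 for P4ha1 and 168 and 154 for P4ha2. Ero1a, the newer name of Ero1l, an oxidase of the endoplasmic reticulum, had 304 and 297, a ratio of -0.03, and was not counted.

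Ndrg1, a stress-responsive gene, had the widest spread over probe sets of any member. Its brightest probe set gave 385 and 327, a log2 ratio of -0.24. Of its 5 probe sets 4 were below 0, and they ran from -1.15, at signals of 69.7 and 31.4, to 0.24, at 191 and 225. The probe set at -1.15 was the only one of the 71 measured member probe sets past 2-fold in either direction. For 1.5-fold, 3 of the 71 were higher and 2 lower, beside 3.70% and 4.03% of all measured probe sets.

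Genes read by several probe sets give a view of probe noise, since they are hybridised with 1 RNA sample. Of 18 members with at least 2 measured probe sets, 5 had all above 0, against 21.1% of all such genes. They were Slc2a3, Pfkl, Tpi1, Pgk1 and Pdk1. Gapdh, Ldhb, Arnt and P4ha1 had all below 0, 4 of 18 against 24.0%. The other 9 were of mixed sign, against 55.0% of all such genes. These shares lie near the background.

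**Figure D3:**
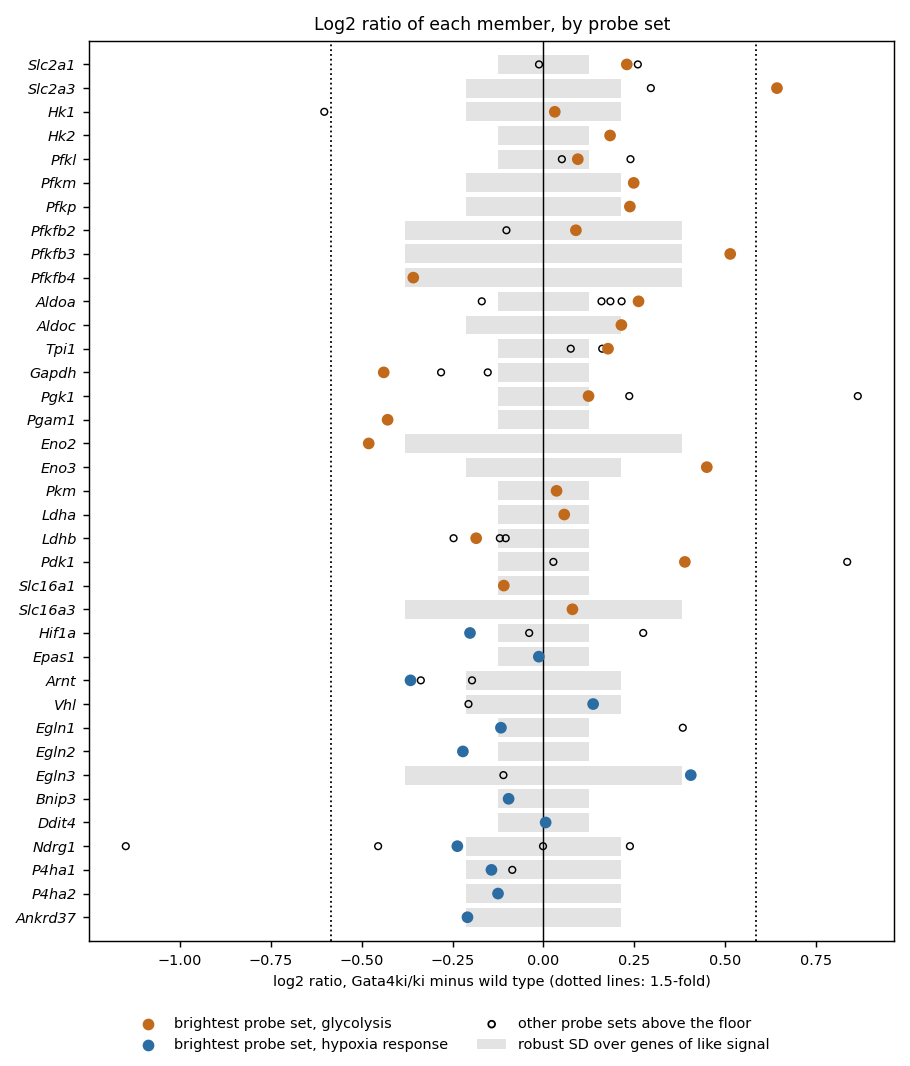
The log2 ratio, mutant minus wild type, is plotted for the brightest probe set of each member (filled; orange for glycolysis, blue for hypoxia response) and for its other probe sets above the floor (open), with the robust SD of genes of like signal as a grey bar around 0 and 1.5-fold as dotted lines. Slc2a3 at 0.64 is the only filled point past 1.5-fold, and open points of Ndrg1 (-1.15), Hk1 (-0.60), Pdk1 (0.84) and Pgk1 (0.86) lie beyond the lines while their brightest probe sets do not.

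The sequence upstream of the members was examined for the core of the hypoxia response element, a property that the list did not use directly. The core was searched as ACGTG and GCGTG on both strands in the 250 bases before each annotated start of transcription, in the RefSeq promoter table of build GRCm38.p6. The palindrome CACGTG holds the core on both strands and counts as 2 overlapping matches; it is also a binding sequence of other factors. A match is a description of the letters and not a binding site. The table holds 34 of the 37 members, in 48 windows, and lacks Slc2a3, Epas1 and Ndrg1.

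The core lay upstream of most members. Of the 48 windows 40 held it, or 83.3%, against 38.6% of all 32851 windows and 55.4% of the 12766 windows of measured genes. The form ACGTG alone was in 25 windows, 52.1%, against 16.6% of all windows and 21.5% of those of measured genes. Windows of a gene can overlap, and the same site is then counted again, as for Aldoa and Pfkm. Counted by gene, 91.2% of the 34 members held the core, against 61.5% of the 9927 measured genes with a window. For ACGTG these gene shares were 61.8% and 25.1%. The median GC content was 61% in the windows of members, 60% in those of measured genes and 52.4% in all windows. HIF target genes were named on the list as such, so these shares are no independent finding, and their difference was not tested. Of the hypoxia response members 9 of 11 genes had ACGTG, and of the glycolysis members 12 of 23. The median GC content of their windows was 67% and 59.8%, and its part in these counts was not tested.

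Upstream sequences are shown for Ldha and Pgk1, which held ACGTG several times, with ratios of 0.06 and 0.12 on their brightest probe sets. The other probe sets of Pgk1 gave 0.24 and 0.86. Sequences are also shown for Pfkfb3, which held ACGTG with a ratio of 0.51, and for Eno2, which held no match with a ratio of -0.48. Gapdh, with 2 matches and a ratio of -0.44, and Eno3, with 1 match and a ratio of 0.45, are not shown. Capitals mark the matches, and each sequence ends at the base before the start of transcription. Ldha lies at chr7:46845554-46845803, plus strand, with 5 matches, Pgk1 at chrX:106186850-106187099, plus strand, with 2, Pfkfb3 at chr2:11502091-11502340, minus strand, with 3, and Eno2 at chr6:124769674-124769923, minus strand. Ldha and Pfkfb3 have 2 annotated starts each, and the window with the most matches is shown.
Ldha: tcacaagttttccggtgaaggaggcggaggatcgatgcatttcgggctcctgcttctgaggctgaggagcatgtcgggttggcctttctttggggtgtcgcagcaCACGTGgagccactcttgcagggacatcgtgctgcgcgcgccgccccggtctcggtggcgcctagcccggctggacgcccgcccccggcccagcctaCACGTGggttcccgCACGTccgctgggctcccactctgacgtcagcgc
Pgk1: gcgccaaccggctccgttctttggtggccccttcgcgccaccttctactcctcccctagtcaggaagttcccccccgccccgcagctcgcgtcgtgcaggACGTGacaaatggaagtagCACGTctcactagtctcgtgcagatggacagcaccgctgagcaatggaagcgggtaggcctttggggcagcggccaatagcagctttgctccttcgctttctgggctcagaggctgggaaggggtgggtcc
Pfkfb3: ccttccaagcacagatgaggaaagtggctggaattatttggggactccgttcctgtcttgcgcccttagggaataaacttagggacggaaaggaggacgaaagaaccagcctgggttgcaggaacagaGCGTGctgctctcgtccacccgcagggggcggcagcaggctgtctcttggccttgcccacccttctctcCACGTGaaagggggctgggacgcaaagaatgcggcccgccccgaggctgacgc
Eno2: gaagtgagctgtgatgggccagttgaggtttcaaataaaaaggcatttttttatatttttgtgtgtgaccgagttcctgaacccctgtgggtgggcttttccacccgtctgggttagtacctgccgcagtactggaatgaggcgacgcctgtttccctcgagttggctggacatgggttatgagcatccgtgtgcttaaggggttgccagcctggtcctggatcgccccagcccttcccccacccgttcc

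Members with and without the core overlapped in their ratios. The 31 members with a match had a median log2 ratio of 0.04 and ran from -0.44 to 0.51, with 18 above 0. The 3 without a match, Tpi1, Eno2 and Vhl, had ratios of 0.18, -0.48 and 0.14. The 21 members with at least 2 matches had a median of 0.01. No test was made of these values.

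**Figure D4:**
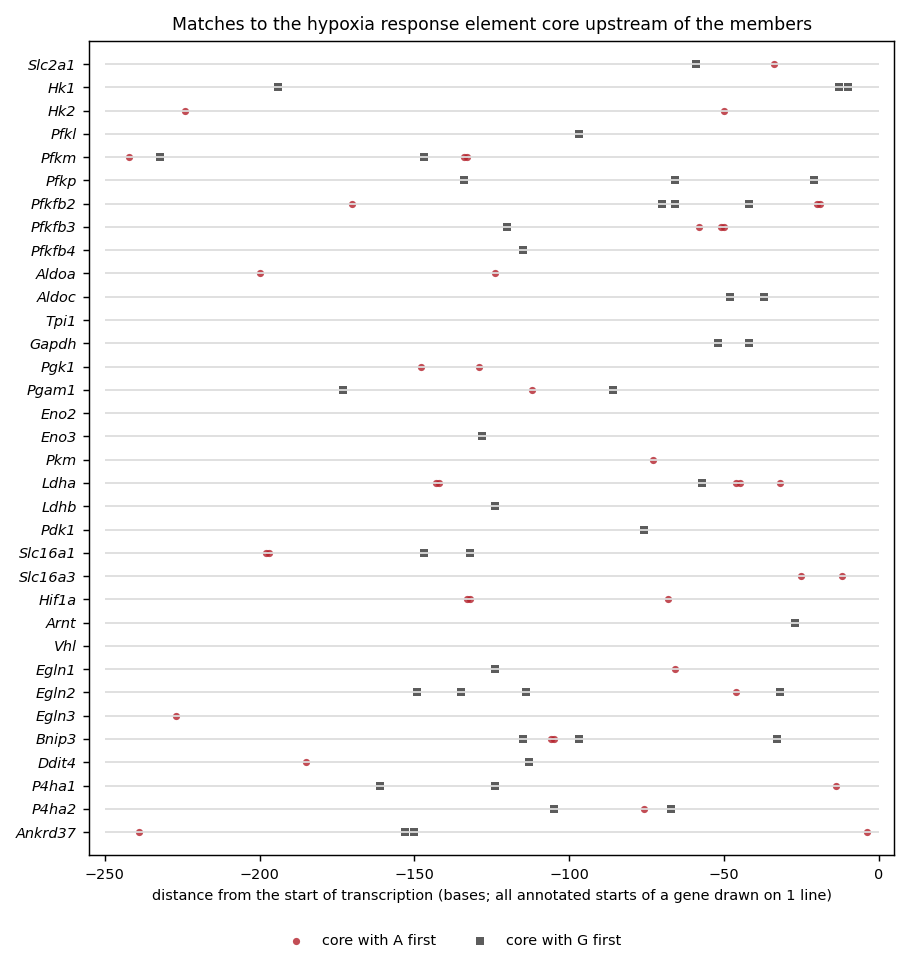
For the 34 members in the promoter table, each match to the core is drawn at its distance in bases before the start of transcription, as a red circle where the core begins with A and as a dark square where it begins with G, with all annotated starts of a gene on 1 line. Tpi1, Eno2 and Vhl have no match, and Ldha and Bnip3 have 5 in 1 window.

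Other HIF target genes, taken from a list of 31, had a median near 0, with a few larger ratios in both directions. Of 27 measured genes 15 were above 0, with a median of 0.03, and none reached 2-fold. Cited2, a HIF-induced inhibitor of the HIF coactivators and a regulator of early gonad and adrenal development, was 1.77-fold higher, with 670.3 and 1186 and a log2 ratio of 0.82. Its other probe set gave 0.48. Adm, adrenomedullin, was 1.97-fold lower, with 138 and 70.1 and a ratio of -0.98, and its other probe set gave -0.48. Angptl4, an inhibitor of lipoprotein lipase, was 1.67-fold lower, with 569 and 341. These 3 genes had the largest absolute ratios of the list. Of the 27 measured genes, 21 lay within 1.25-fold, against 79.4% of all measured genes. Car9, a carbonic anhydrase widely used as a hypoxia marker, was under the floor in both groups (13.4 and 9.49).

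Endothelial markers were mostly lower in the mutant on the same arrays. Of 11 markers 2 were above 0, the median was -0.19, and summed signals were 2993 and 2585. Sox17, Sox18, Tek and Cdh5 had log2 ratios of -0.66, -0.57, -0.44 and -0.38. Adm and Angptl4 are also expressed by endothelial cells, and the part of this cell type in their values was not tested.

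The remaining HIF machinery showed no 1.5-fold difference among 7 measured genes. Ep300, a coactivator of HIF and of many other factors, had 455 and 647, a log2 ratio of 0.51. Hif1an, the asparaginyl hydroxylase that blocks coactivator binding, had 204 and 158, a ratio of -0.37, and Arnt2 had 362 and 447, a ratio of 0.30. The median of these genes was 0.05.

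Isozymes of glycolysis outside the list were mostly near or under the floor. Of 14 on the array 9 were measured, and Pgk2, Pgam2, Eno4, Ldhc and Hkdc1 stayed under the floor in both groups. Hk3, a hexokinase typical of myeloid cells, had 20.3 in wild type and 41.1 in the mutant, at least 1.71-fold higher (2.03-fold at the 40th percentile floor). Tigar, a fructose bisphosphatase, was 1.52-fold higher with 65.9 and 100.1, and its 3 probe sets ran from 0.23 to 0.60. Bpgm, which makes the red cell regulator of oxygen affinity, had 260.3 and 309, a log2 ratio of 0.25. The direction of Hk3 and Bpgm was that of the leukocyte and erythroid markers, whose part was not tested.

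Other gene groups, chosen with earlier results of these data known, were read on the same arrays for scale. The ovarian genes Fst and Foxl2 had signals of 769.5 and 65.6, and of 142 and 34.5. Cyp17a1 and Hsd3b1, of steroid synthesis, were at least 8.81-fold and 4.49-fold higher in the mutant. The gonadal genes Nr5a1, Emx2, Gata4 and Zfpm2 and the mesonephric genes Calb1, Lhx1, Wnt7a and Ret were above the floor on both arrays, so that defining genes of both parts of the tissue were present. Of 8 measured mesonephric markers 1 was above 0, with a median of -0.17 and summed signals of 1685 and 1358. The 6 gonadal markers had a median of 0.13 and summed signals of 5375 and 5336. The part of the tissue make-up in the ratios of the members was not tested. Ratios of germ cell markers ran from -0.71 for Dnd1 to 0.51 for Kit, through -0.31 for Dazl and 0.41 for Dppa5a, with a median of 0.01. Stromal markers had a median of 0.15, with Acta2, Col1a1, Pdgfrb and Maf at 0.89, 0.38, 0.32 and -0.28. The members covered a range from -0.48 to 0.64, while the ovarian supporting markers ran from -3.55 to 0.42 and the steroidogenic markers from -0.25 to 3.14.

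**Figure D5:**
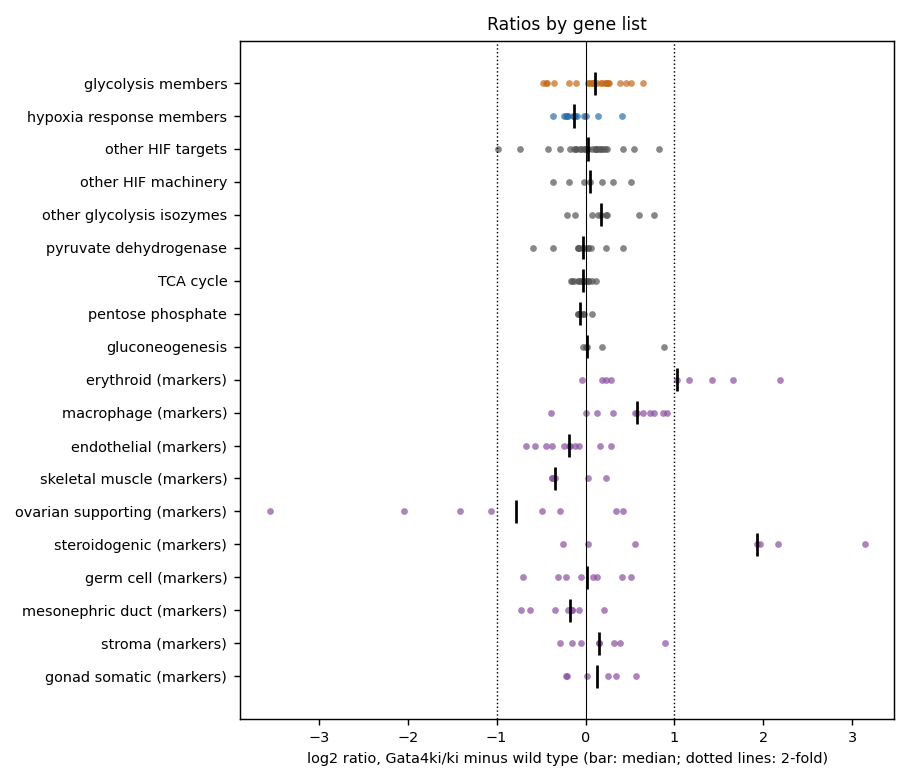
Each point is the log2 ratio, mutant minus wild type, of a gene above the floor on at least 1 array, by list, with the median as a black bar and 2-fold as dotted lines; bounds are drawn at their value. All glycolysis (orange) and hypoxia response (blue) members lie within 2-fold, as do the other pathway lists (grey) with bounds at their drawn value (Hk3 and Fbp1 are lower bounds that come to 2.03-fold and 2.29-fold at the 40th percentile floor), while erythroid, ovarian supporting and steroidogenic markers (purple) reach beyond.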

How the data were processed

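Total RNA of gonad-mesonephros complexes was hybridised to 1 oligonucleotide array per group. The authors deposited 1 linear-scale intensity per probe set and array, for which the submitters' processing notes name MAS5 without a version; detection calls and filters were not used here. The mean without the top and bottom few percent of probe sets was 150.0 on both arrays, so that global scaling was already done. The number of arrays limits the precision.

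Probe sets were named through the platform annotation: 34958 had 1 symbol, 932 had several and 9211 had none. Values were raised to the floor before taking log2, without further scaling. Each gene took the value of its brightest probe set (mean log2 over both arrays); control probe sets were used only for Gapdh, which has no other. A ratio with 1 array at or under the floor is a bound. The calculation was tested on simulated data. The differences planted there were larger than those of the members, in genes brighter than the dimmest members. That test does not bear on ratios as small as theirs. Python 3.11.15, numpy 2.4.6 and pandas 2.3.3 were used.

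The members and lists were chosen with earlier results of these data known. All members are named, with 3 genes per pathway list and up to 4 per marker list by largest absolute ratio; genes named beyond these complete a count or a check of the tissue, chosen with their values in view. Alternatives varied the floor, pseudocount, probe sets and scaling. The array values name no build; coordinates are given only for the RefSeq upstream windows, in GRCm38.p6.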

Additional observations from a re-analysis of the deposited data

How the results depend on the processing

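No member reached 2-fold in any of the alternatives run, which were floors at the 40th and 60th percentile, no floor, a pseudocount, the median over probe sets, no suffixed probe sets, quantile normalization and centring. The run without suffixed probe sets left out every suffix letter, not only those for probe sets which may bind other genes. It kept 28 members. The count of members at least 1.5-fold higher was 0 in place of 1 with the median over probe sets and 0 without suffixed probe sets, where Slc2a3 had no measured probe set; no member was 1.5-fold lower in any. The median of all members ran from 0.01 to 0.05, that of glycolysis members from 0.10 to 0.18 and that of hypoxia response members from -0.13 to -0.10. The glycolysis members above 0 numbered 16 of 24 with the median over probe sets, 12 of 15 without suffixed probe sets, and 17 of 22 at the 60th percentile floor. The hypoxia response members above 0 numbered 2 of 13 after centring and 4 of 13 without suffixed probe sets. Of 37 members 31 kept the sign of their ratio in every alternative run for them. The others were Hk1 (-0.29 with the median over probe sets), Hif1a (0.27 without suffixed probe sets), Egln1 (0.13), Vhl (-0.03) and Pfkfb2 (-0.01) with the median over probe sets, and Ddit4, whose ratio was near 0 throughout. Pdk1 was at 0.03 without suffixed probe sets. Leaving out Gapdh or adding Ero1a, both chosen after seeing the data, gave medians of 0.05 and 0.03. No paired analysis was possible because each group holds 1 array, and for the same reason no array could be left out. Signal over background limits the dimmest members, Eno2, Slc16a3, Pfkfb2 and Pfkfb3.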

Other observations

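On their brightest probe sets, genes of the mitochondrial and branching routes of glucose metabolism were close to level between the arrays. All 15 measured genes of the citric acid cycle lay within 1.25-fold, against 79.4% of all measured genes. Their log2 ratios ran from -0.17 for Sucla2 to 0.11, with a median of -0.03. Sucla2, a subunit of succinyl-CoA synthetase, had signals of 1394 and 1243, Dlst 710.2 and 638, and Idh3a 1099 and 1004. Less bright probe sets went further in both directions. Idh3a and Ogdh were at -0.75 and -0.34 on their lowest, and Sdhc, Sdha and Mdh2 at 0.79, 0.42 and 0.39 on their highest. All 7 measured genes of the pentose phosphate pathway also lay within 1.25-fold, from -0.09 for Pgls and Rpe to 0.07 for H6pd, with a median of -0.06. Pgd was at 0.48 on its highest probe set.

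At the gate between glycolysis and the mitochondrion, 9 of 12 measured genes of pyruvate entry lay within 1.25-fold, against 79.4% of all measured genes. The median log2 ratio of the 12 was -0.02. Pdk4, a pyruvate dehydrogenase kinase induced in fasting, had 58.3 and 38.8, a log2 ratio of -0.59, opposite in sign to Pdk1. Pdp2, a phosphatase that reactivates the complex, had 52.3 and 69.8, a ratio of 0.42, and Pdhx had 189 and 146, a ratio of -0.37. The robust SD of genes of like signal was 0.38 for Pdk4 and Pdp2 and 0.21 for Pdhx. With the floor at the 60th percentile Pdk4 was at -0.26. Of the gluconeogenic genes, Fbp1, fructose bisphosphatase, had 19.2 and 44.2 and was at least 1.84-fold higher in the mutant (2.29-fold at the 40th percentile floor). Pck1 and G6pc stayed under the floor in both groups, and Pcx and G6pc3 had ratios of 0.19 and -0.03.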
